A study of Drosophila melanogaster with 6 samples.

Results

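Yorkie (Yki) occupancy on chromosome arm 3R, the right arm of the third chromosome of Drosophila melanogaster, was described from a chromatin immunoprecipitation sequencing (ChIP-seq) experiment. The members are all peaks that the authors' list places on 3R. There are 737 of them among the 5136 peaks of the whole list, which is 14.3% (exact Clopper-Pearson 95% interval 13.4 to 15.3%). They are 23.2% (21.7 to 24.7%) of the 3182 peaks on the 6 chromosome arms 2L, 2R, 3L, 3R, 4 and X. The choice rests on position alone, so peak score and peak width played no part in it.

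The study sequenced 3 libraries of Yki ChIP DNA and 3 of input DNA. Both groups came from whole embryos of the Y cn bw sp strain, aged 8 to 16 h and fixed in 1.8% formaldehyde for 15 min. All 6 libraries share 1 genotype, so ChIP and input do not differ in it. The labels give y[1] with oc[R3.2], then Gr22b[1] and Gr22d[1], besides cn[1] with CG33964[R4.2], and bw[1] with sp[1]. The third group of alleles is LysC[1] and lab[R4.2], followed by MstProx[1] with GstD5[1] and by Rh6[1]. The antibody was a crude rabbit polyclonal serum, Yki91, raised against full-length Yki, and the input is DNA without precipitation. Whole embryos hold all tissues at once, so a site occupied in few cells and a site occupied weakly in many cannot be told apart. No tissue marker can be checked in DNA occupancy data.

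Yki is the coactivator through which the Hippo pathway controls transcription. The kinase cascade of Hippo and Warts phosphorylates Yki and keeps it out of the nucleus; when the cascade is quiet, nuclear Yki promotes growth and survival genes. Yki has no DNA-binding domain of its own and reaches chromatin through partners such as Scalloped and Homothorax. A peak may thus mark a place where such a complex was crosslinked. The libraries hold Yki ChIP and input DNA only, so whether a partner was present at a peak was not tested. Arm 3R holds 24.6% of the protein-coding genes of the 5 large arms in the release 6 gene table, 3396 of 13831. Of 12 Hippo pathway genes listed for this purpose, 7 lie on it. They are wts, which encodes the kinase that phosphorylates Yki, the kinase cofactors sav and mats, the upstream regulator kibra, the polarity genes crb and scrib, and hth, which encodes Homothorax. All 8 listed Hox genes, the segment identity genes from lab to Abd-B, are on this arm as well. So are 11 of the 12 listed Notch genes, namely the E(spl) genes that act downstream of the Notch receptor. Of 7 listed Yki targets, 5 matched the table and 2 lie here, the cell-cycle regulator E2f1 and the insulin receptor InR. The other lists placed 2 of 3 further signalling genes on the arm, hh and pnt, and 1 of 5 tracheal and muscle genes, how. The lists were put together by hand and were not tested against the arm's share of genes. The peaks have release 5 positions and the gene table release 6 positions, so no peak was assigned to any of these genes, and sites are named by position only.

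The list gives each peak 1 score for the whole series, the authors' own value, whose scale no label or header states. It is used below only to compare peaks within this list, and differences in score have no stated unit. Strong and weak refer to this score. There are no values per library, so the depth is unknown, no spread between replicates can be given, and no test between samples was possible. Intervals cover counting error over peaks only, and peaks of 1 list are not replicates.

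Yki sites on 3R were narrow and of very uneven strength. The median score was 33.4 (order-statistic 95% interval 31.0 to 37.5), with quartiles of 17.82 and 71.64, and scores ran from 7.22 to 472.97. Thus the strongest 25% of the sites spread from 71.64 to 472.97, while the weakest 25% were packed between 7.22 and 17.82. The median width was 442 bp (423 to 477 bp), with quartiles of 301 and 647 bp and a range of 201 to 4818 bp. Together the peaks covered 412366 bp, or 1.48% of the arm up to its last peak.

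The strongest Yki site of the arm lay near its telomere end, at 27538590 to 27539883, with a score of 472.97 and a width of 1294 bp. It ranked number 5 in the whole list. Its own neighbourhood was uneven: a weak peak of score 12.02 followed after 7617 bp and a broader one of 1719 bp and score 88.96 came next. The second site, at 7599096 to 7600180, scored 425.36 and was the centre of a group of 8 peaks described below. The third, at 25597488 to 25600749, scored 413.66 and was 3262 bp wide. It was flanked at 7102 and 7385 bp by peaks of only 31.0 and 14.67.

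The fourth site, at 14023261 to 14025097 with a score of 366.41, sat 57 bp from a separate peak of 124.8. The fifth, at 17867213 to 17868819 with 360.17, had a small peak of 17.5 after 867 bp. These 5 were the peaks of 3R in the strongest 1% of the list, a class that by its threshold held 1.01% of all peaks and 0.678% of 3R (0.221 to 1.58%).

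Below them, scores fell from 327.7 at rank 6 to 241.91 at rank 20, and the peak at rank 21, just outside the named 20, scored 237.48. The site at 9638340 to 9638999 scored 327.7 over 660 bp, and a second strong peak of 133.65 stood 1659 bp away. At 13542610 to 13543775 the score was 314.93, and the neighbour 208 bp downstream reached 13.08. The sites at 5376202 to 5377478 and 277899 to 279700 scored 309.57 and 307.51 and stood alone, with no other peak within 15500 and 18419 bp. Next came the sites at 7430309 to 7430970 with 303.58 and at 5243275 to 5245514 with 302.29. The latter opened a series of 3 strong peaks, with 245.73 at 5253839 to 5254637 and 101.73 at 5262121 to 5262670.

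The remaining members of the named 20 were at 13769153 to 13769942 (score 297.61), 9509420 to 9510469 (273.82), 9843259 to 9843884 (268.74), 12528384 to 12529122 (252.28) and 12879251 to 12879861 (245.82). The last 3 were at 24686799 to 24687619 (244.38), 911921 to 913960 (243.92) and 19783689 to 19784680 (241.91). The 20 strongest sites fell in 12 of the 28 bins of 1 Mb. Between 5 and 15 Mb there were 13 of them, a stretch chosen after the values were seen. Of all 737 peaks, 141 lay between 5 and 10 Mb and 167 between 10 and 15 Mb. Of the 20 strongest sites, 6 stood alone, 14 had another peak within 10 kb, and 3 belonged to groups of at least 4 peaks. Over all 737 peaks of 3R, 281 stood alone, 456 (61.9%) had such a neighbour and 143 (19.4%) belonged to such groups. Widths of the 20 ran from 611 to 3262 bp, and 11 of the 20 were wider than 1000 bp.

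**Figure D1:**
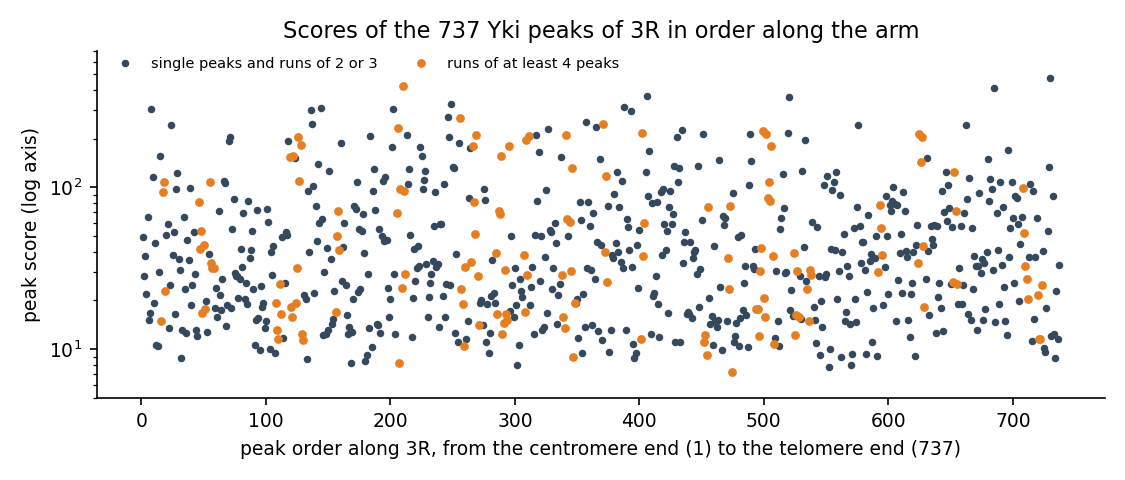
Score (log axis) of each of the 737 peaks of 3R, plotted in their order from the centromere end to the telomere end; orange points belong to runs of at least 4 peaks joined at gaps of at most 10 kb. Scores run from 7.22 to 472.97 and show almost no rank correlation with position (Spearman 0.02). The highest point lies near the telomere end.

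Wider sites had higher scores. Across the 737 peaks the Spearman correlation of score and width was 0.74 and Pearson's was 0.57; both are properties of the same peak in the same libraries, so no p is given. The 182 peaks of 201 to 300 bp had a median score of 14.86 and a highest score of 40.76. The 244 peaks of 301 to 500 bp had a median of 31.78, the 245 peaks of 501 to 1000 bp a median of 63.5, and the 66 wider peaks a median of 112.05. The intervals of these 4 medians did not overlap. On 2L, 2R, 3L and X together the same bands had medians of 14.79, 29.12, 67.47 and 106.91, so the rise with width was close to that on 3R.

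Some sites departed from that relation. The widest peak of the arm, 4818 bp at 873135 to 877952, scored only 25.07 and stood alone, with its nearest neighbour 33968 bp away. Of the 66 peaks over 1000 bp, 4 fell below the list's median score; they are named here after their values were seen. Beside the widest one, they were at 4396941 to 4398978 (2038 bp, score 24.65), 16654866 to 16656193 (1328 bp, 24.24) and 17121985 to 17123299 (1315 bp, 25.5). The other 3 of the 5 widest, after the one at 25597488 to 25600749, were at 26212452 to 26215311 (2860 bp, 108.15), 2933220 to 2935870 (2651 bp, 204.29) and 16078191 to 16080694 (2504 bp, 213.89).

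Even the narrowest of the strong sites were wider than the arm's median of 442 bp. Among the 50 highest-scoring peaks, the 5 narrowest were at 17443950 to 17444518 (569 bp, score 215.18), 2929000 to 2929573 (574 bp, 192.75), 6652416 to 6652996 (581 bp, 209.4), 12879251 to 12879861 (611 bp, 245.82) and 9843259 to 9843884 (626 bp, 268.74). The site of 574 bp at 2929000 lay 3646 bp from the wide one at 2933220, and their scores, 192.75 and 204.29, were close. The 3 weakest peaks of the arm were at 19678546 to 19678846, 19104618 to 19105002 and 16938665 to 16938911, with scores of 7.96, 7.78 and 7.22.

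**Figure D2:**
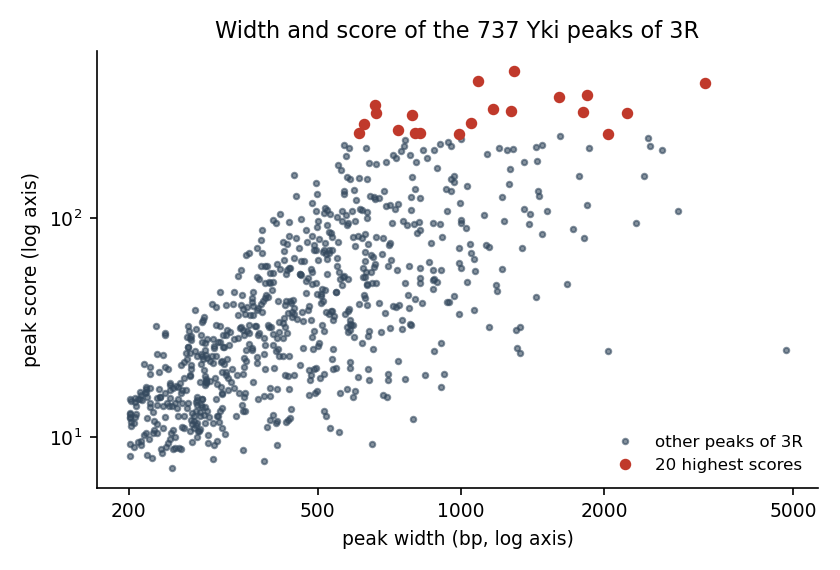
Score against width (both log axes) for the 737 peaks of 3R, with the 20 highest scores in red. Score rises with width (Spearman 0.74), the 20 strongest sites run from 611 to 3262 bp, and the widest peak, at 4818 bp, has a score of only 25.07.

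Set beside the other large arms, 3R had a larger share of sites above the list's median score, while its shares of the strongest sites differed from theirs by less than counting error. On 3R, 406 peaks, or 55.1% (51.4 to 58.7%), belonged to the strongest 50% of the list (score at least 30.1), where the background over all 5136 peaks is 50% by construction. On 2L, 2R, 3L and X together the share was 49.7% (47.7 to 51.7%), and singly it was 49.9, 52.5, 46.3 and 50.4%. The difference was 5.38 percentage points (Newcombe 95% interval 1.25 to 9.46). This interval treats peaks as independent. Neighbouring peaks are not, so it is too narrow, and that it leaves out 0 decides nothing. In the strongest 25% of the list (background 25%) 3R had 181 peaks, 24.6% (21.5 to 27.8%), beside 23.7% on the other 4 arms. In the strongest 10% (background 10%) it had 76 peaks, 10.3% (8.21 to 12.7%), beside 11.2%. Singly, 2L, 2R, 3L and X had 11.0, 11.9, 10.9 and 11.0% in that class, so the share of 3R was the lowest. The differences of 0.875 (-2.57 to 4.51) and -0.883 (-3.28 to 1.81) percentage points had intervals that include 0, which does not show that the arms are alike.

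The median score of 3R exceeded that of the other 4 large arms together, 30.05 (28.5 to 31.85), by 3.35. The intervals of these medians overlap, which does not show that they are equal. The difference was 1.11 against 2R (median 32.29), 3.03 against X (30.37), 3.35 against 2L (30.05) and 5.85 against 3L (27.545). Only the last pair of medians had intervals that did not overlap, 31.0 to 37.5 on 3R and 25.5 to 30.18 on 3L. Among peaks at least as wide as the list's median, the difference from the other 4 arms was 0.01. No test of these differences was run, because neighbouring peaks are not independent and no replicate values are in the list.

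**Figure D3:**
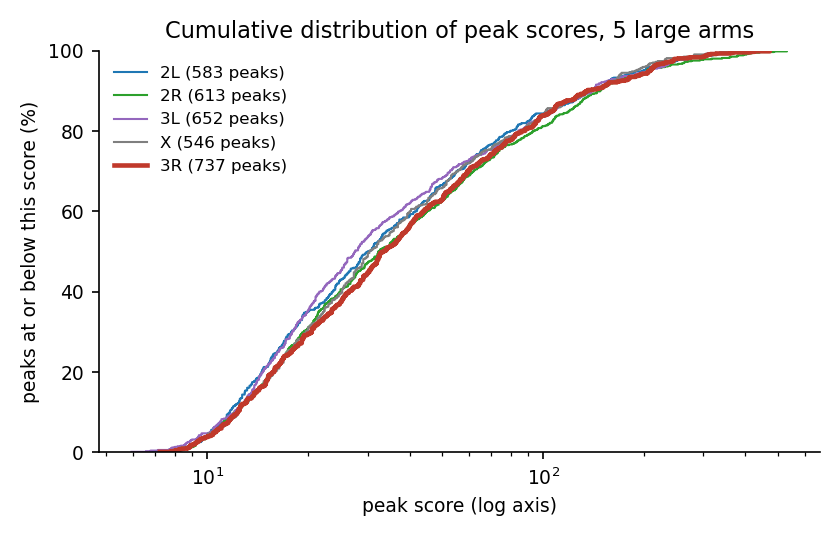
Cumulative share of peaks (percent) against peak score (log axis) for 3R (thick red line, 737 peaks) and the other 4 large arms. Around scores of 20 to 50 the line of 3R runs lowest or level with 2R, and its median is 33.4. At a score of 132.7, the threshold of the strongest 10% of the list, the line of 3R is the highest and that of 2R the lowest.

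Yki sites were spread over the arm from end to end. The first peak began at position 130 and the last ended at 27841763. The density was 26.5 peaks per Mb, next to 26.6 on 3L, 29.0 on 2R, 25.3 on 2L and 24.4 on X. Set against genes, 3R had 21.7 peaks per 100 protein-coding genes, with 3396 such genes in the release 6 table. The same ratio was 21.5 on 2R, 22.0 on 2L, 23.8 on 3L and 24.9 on X. Release 6 arms take in stretches that release 5 kept apart, so these ratios are approximate.

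Density varied along the arm. In sections of 5 Mb from the centromere end, there were 24.6, 28.2, 33.4, 30.6 and 16.6 peaks per Mb, and 24.6 in the last, shorter section. The section from 10 to 15 Mb was the richest, with 167 peaks, and the one from 20 to 25 Mb the poorest, with 83. Median score did not rise with number. Across the 27 full bins of 1 Mb, the Spearman correlation of peak number and median score was -0.25 and Pearson's was -0.36. No test of this relation was run. The sparse section from 20 to 25 Mb had the highest median score, 40.4 (34.1 to 56.51), and 53 of its 83 peaks, or 63.9%, were in the strongest 50% of the list. The first 5 Mb had the lowest median, 28.59 (24.65 to 36.54), with 47.2% of peaks in that class. These 2 intervals overlap.

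At 1 Mb resolution, full bins held between 7 and 48 peaks around a median of 26. The fullest, from 17 to 18 Mb, had 48 peaks with a median score of 30.38. The emptiest, from 23 to 24 Mb, had 7 peaks with a median of 70.14, and 6 of the 7 belonged to the strongest 50% of the list. Their scores, in order of position, were 70.14, 124.16, 61.84, 103.28, 74.91, 25.2 and 56.69. So few peaks fell there that the interval of the median, 25.2 to 124.16, spans all of them. The bin from 14 to 15 Mb had the second highest median, 68.4 (28.19 to 95.15), over 27 peaks. The last bin, beyond 27 Mb, had the lowest, 19.84 (11.58 to 40.4), although it holds the strongest site of the arm. In 24 of the 28 bins at least 1 peak reached the strongest 10% of the list.

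The longest stretches without a Yki peak gathered around that sparse bin. They were 351060 bp at 23462408 to 23813467, 335389 bp at 23815148 to 24150536 and 298504 bp at 23107668 to 23406171. The first 2 are parted by only a pair of peaks, with scores of 25.2 and 56.69. The next longest were 288188 bp at 3317585 to 3605772 and 267162 bp at 6715373 to 6982534. In all, 80 of the 736 gaps between neighbouring peaks exceeded 100 kb and 19 exceeded 200 kb. How much of each stretch reads could be mapped to was not tested.

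At a window size of 100 kb, peaks were clumped on every large arm, with 3R at the lowest of the 5 values in both measures that follow; differences between arms were not tested. Of 278 windows of 100 kb, 40 held no peak, or 14.4%, compared with 16.6% on 2R, 18.0% on 3L, 21.7% on 2L and 23.2% on X. The variance of the peak number per window was 1.99 times its mean of 2.65, beside 2.16 on 2R, 2.46 on 3L, 2.57 on X and 4.34 on 2L. A single window of 2L held 35 peaks, while the fullest of 3R held 16. The ratios of the other arms were not recomputed without their fullest windows. Most windows of 3R held few peaks: 57 held 1, 62 held 2 and 44 held 3. The fullest window, at 17400001 to 17500000, held 16, with a median score of 34.02. It was followed by 9800001 to 9900000 and 10500001 to 10600000 with 11 peaks each, and by 10100001 to 10200000 and 12000001 to 12100000 with 10 each. The highest scores in these 4 were 268.74, 180.05, 210.04 and 210.04, so each of the 5 fullest windows also contained a site of the strongest 10%. That class made up 10.3% of all peaks of 3R. A fuller window has more chances to hold such a site, so this count shows no relation between score and density.

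Most Yki sites on 3R had company nearby. Of the 737 peaks, 456, or 61.9% (58.3 to 65.4%), had another peak within 10 kb, 357 (48.4%) had one within 5 kb and 195 (26.5%, 23.3 to 29.8%) within 1 kb. On 2L, 2R, 3L and X together the shares at 10 and 5 kb were 63.7 and 50.3%. The median distance to the nearest peak was 5751 bp. At 1 kb the share on X was higher, 36.1% (32.0 to 40.3%), with an interval apart from that of 3R. The shares on 2L, 2R and 3L, 31.2, 27.9 and 25.3%, had intervals that overlapped with it. At 50 kb, 93.5% of the peaks of 3R had a neighbour.

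**Figure D4:**
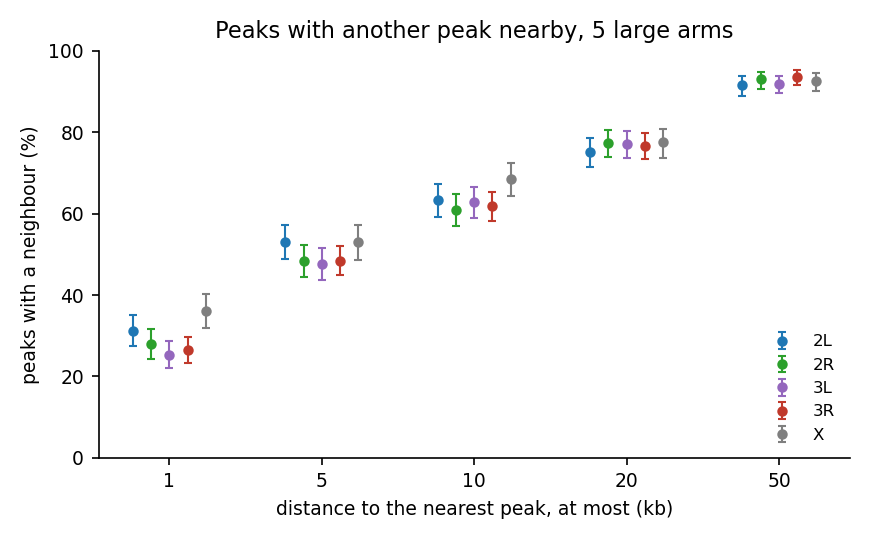
Share of peaks (percent) with another peak within 1, 5, 10, 20 and 50 kb on each large arm; bars are exact 95% intervals for counting error. The red points of 3R rise from 26.5% at 1 kb to 93.5% at 50 kb and lie close to those of 2R and 3L, while X is higher at 1 kb.

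Peaks joined at gaps of at most 10 kb are called a run. Arm 3R had 163 runs of at least 2 peaks, and its other 281 peaks stood alone. Of the runs, 95 had 2 peaks, 41 had 3 and 27 had at least 4. Runs of at least 4 peaks held 143 peaks, or 19.4% of the arm, beside 20.6% on 2R, 23.6% on 3L, 23.8% on 2L and 26.9% on X. On 2L, 1 run alone held 39 of the 139 such peaks, while the largest run of 3R held 15. The share on 2L thus depends in part on a single locus. The median length of a run on 3R was 5056 bp.

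Median scores of single and grouped peaks were close together. Single peaks had a median score of 34.36 (29.91 to 40.04), peaks in runs of 2 or 3 a median of 33.9 (29.12 to 40.4) and peaks in longer runs a median of 31.96 (28.54 to 39.34). The share of peaks in the strongest 10% of the list was 8.19% (5.26 to 12.0%) among single peaks, 9.9% (6.83 to 13.8%) in runs of 2 or 3 and 15.4% (9.9 to 22.4%) in longer runs. On the other 4 large arms the shares were 10.4, 10.6 and 13.4%, in the same order. The intervals on 3R overlap, and the difference between the classes was not tested. When the peaks of 3R were split by score into 4 classes of like size, 65.4% of the weakest class had a neighbour within 10 kb, then 59.2%, 55.4% and 67.4% of the strongest. The same shares on the other 4 large arms were 62.4, 62.1, 63.7 and 66.8%.

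The make-up of the runs was close to that on the other large arms. In 98 of the 163 runs, or 60.1% (52.2 to 67.7%), peaks above and below the list's median score stood together, beside 60.3% of 521 runs on 2L, 2R, 3L and X. In 38 runs all peaks were in the strongest 50% of the list and in 27 none was. A peak of the strongest 25% was found in 84 runs, or 51.5% (43.6 to 59.4%), beside 49.5% on the other 4 arms. Among runs of at least 4 peaks it was found in 22 of 27, or 81.5% (61.9 to 93.7%), beside 71.6% (61.8 to 80.1%) of 102. A longer run has more chances to hold such a peak, so these counts describe the runs and show no relation between score and grouping.

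The longest run held 15 peaks over 60.4 kb at 17405861 to 17466212. It began with scores of 17.75, 17.62, 12.01, 30.36 and 42.07, of which the last 2 were above the list's median. The strongest peak, 221.97 at 17430852 to 17431791, came sixth, and was followed by 20.75 and 15.89. A second strong peak of 215.18 stood at 17443950 to 17444518, with 86.04, 108.42 and 82.3 after it. Another strong peak, of 180.05, lay at 17458220 to 17459575, and the run closed with 37.69 and 10.75. The second and the last strong peak thus lay 12.9 and 27.6 kb from the strongest, and weak peaks stood at both ends. Within the run, peaks covered 13.7% of the length.

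The run of 8 peaks at 7584157 to 7606431 was shorter and more densely covered, with 36.9% of its 22.3 kb under peaks. It held the second strongest site of the arm, 425.36, whose nearest other peak was 3486 bp away. Upstream stood a wide site of 2475 bp with 232.17, bordered by 69.75 and 8.22, and then a pair of 97.11 and 23.94. Downstream came a wide site of 2339 bp with 95.44 and a small peak of 29.18. Of its 8 peaks, 5 were in the strongest 50% of the list.

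Among the other 3 runs with the most peaks, the one at 10103587 to 10124271 had 7 peaks, with 180.05 near its start and its highest score, 210.04, at 10111596 to 10112800. The run at 5040104 to 5073216 also had 7 peaks and carried 203.67, 109.68 and 181.9 at its centre, with scores of 31.64 or less on both flanks. The run at 21861224 to 21883870 had 6 peaks and the highest median of all runs of at least 4, 93.48, from scores of 34.1, 212.9, 143.4, 206.07, 43.55 and 18.29. It lay in the sparse section between 20 and 25 Mb, and no peak followed it for 130557 bp.

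**Figure D5:**
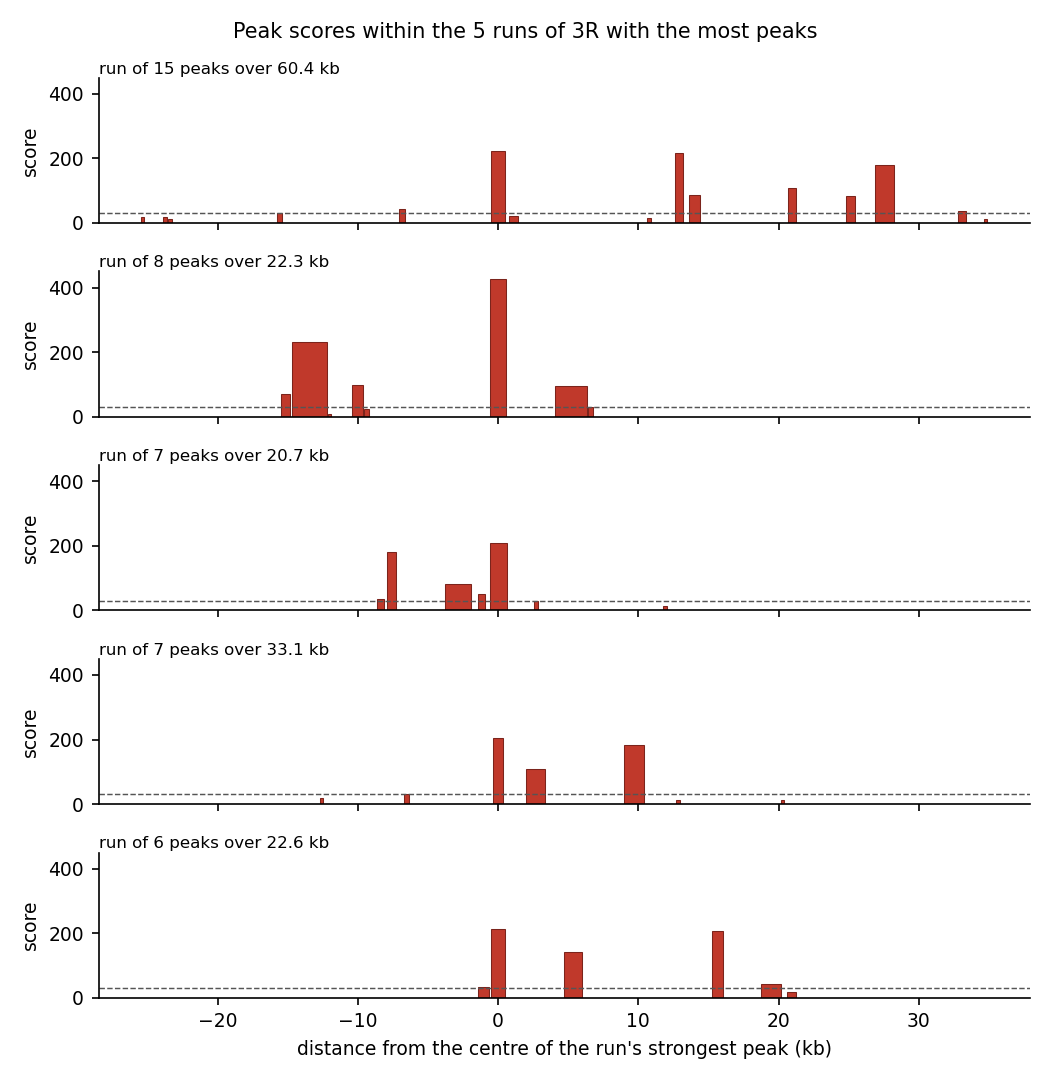
Score of each peak in the 5 runs of 3R with the most peaks, against the distance of its centre from the run's strongest peak (kb); bar width is peak width and the dashed line is the list's median score of 30.1. In each run 2 or more peaks lie far above the line and the weakest lies below it. The strongest peak of the 5 runs, 425.36, stands in the run of 8.

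By median score, the leading runs of at least 4 peaks were, after the one at 21861224, those at 4878550 to 4883756 (median 86.06), 7584157 to 7606431 (82.6), 12879251 to 12898809 (78.66) and 10522589 to 10550236 (68.72). The first of these was compact, with its strength at both ends: peaks of 153.94 and 156.66 stood there, 3925 bp apart from centre to centre, with peaks of 18.17 and 15.86 between them. In the run at 12879251 the scores were 245.82, 40.07, 117.24 and 26.09. In the run at 10522589 they were 39.15, 16.46, 71.02, 68.72 and 156.8.

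At the other extreme, 2 runs of at least 4 peaks had no peak in the strongest 50% of the list; they are named here after their values were seen. At 4725347 to 4728584, 5 peaks with scores of 19.38, 13.09, 11.54, 25.29 and 16.61 followed each other at gaps of 174 to 265 bp and filled 73.7% of 3.24 kb. At 27045228 to 27048543, 4 peaks scored 21.69, 11.54, 11.58 and 25.08. Both runs were short and stood well apart from other peaks on at least 1 side, with 78684 bp before the first and 87752 bp after the second.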

How the data were processed

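Per the labels, 3 Yki ChIP and 3 input libraries were sequenced from 8 to 16 h embryos. The authors deposited 1 peak list with a start, an end and a score per peak; per the file headers it follows FlyBase release 5 and comes from MACS. BWA and MACS2 appear in the submitters' processing notes, beside the build BDGP5 and CASAVA in versions 1.7.0.3 and 1.7.0.2. The score's scale and the way libraries were combined are not given in the sources used here.

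Peaks on 3R were kept. Other large arms were 2L, 2R, 3L and X, and an arm's length was taken as its furthest peak end. Distances run from edge to edge, and windows of 100 kb and bins take peaks by midpoint. Shares have exact Clopper-Pearson intervals and medians order-statistic intervals, and a difference of shares a Newcombe interval, all at 95%. No p-value was computed. Run, neighbour and window functions were tested on simulated data.

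Named by rule were the 20 highest-scoring and 5 widest peaks, the 5 narrowest among the 50 highest-scoring, the 3 lowest, the 5 fullest windows, the 5 runs with the most peaks, the 5 of at least 4 peaks with the highest median, and the 5 longest gaps. Members and lists were chosen with earlier results of these data known. No release 5 genome was used here, so start sites, motifs and sequences were not analysed. Computation used scipy 1.17.1, numpy 2.4.6 and pandas 2.3.3 under Python 3.11.15, with plots from matplotlib 3.10.9.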

Additional observations from a re-analysis of the deposited data

How the results depend on the processing

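The median score of 33.4 without the fullest 100 kb window was the same, and the number of runs was 144 and 169 when peaks were joined at 5 and 20 kb in place of 163 at 10 kb. The excess of 3.35 over the other 4 large arms was 0.01 among peaks at least as wide as the list's median, and the cause was not tested. Against each arm alone and against all other sequences (4.0), alternatives chosen after seeing the data, it kept its sign. In the strongest 50% and 25% of the list, 3R by construction had fewer peaks (406 and 181), which were wider at medians of 586 and 739 bp. The share with a neighbour was by construction lower at 5 kb (48.4%) and higher at 20 kb (76.7%). Among the strongest 50% it was 44.1%. The variance over mean of peaks per window was 1.71 at 50 kb, 2.27 at 200 kb, 1.86 with windows shifted by 50 kb and 1.79 without the fullest window. Pearson's correlation of score and width was 0.57. No paired analysis was possible because no value per replicate is in the list; leaving out a replicate was impossible for that reason too. Alternatives that need start sites or motifs were not run. The depth of the libraries is unknown, and with it how many weak sites were missed.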

Other observations

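Some Yki peaks were called almost side by side. On 3R, 40 of the 736 gaps between neighbouring peaks, or 5.43%, were under 200 bp, with a median of 127 bp and a shortest gap of 50 bp. On the other 4 large arms together the share was 5.9%. In 18 of the 40 pairs, 1 peak belonged to the strongest 50% of the list and the other did not; both did in 9 pairs and neither in 13. The largest difference within a pair, 241.61 score units, was between 124.8 at 14022547 to 14023203 and 366.41 at 14023261 to 14025097, next to each other at 57 bp. A pair at 7584963 to 7587437 and 7587490 to 7587690 had scores of 232.17 and 8.22, with 52 bp between them. Whether such pairs are separate sites or parts of 1 enriched stretch was not tested.

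Scores of neighbouring peaks on 3R had weak rank correlations. Across 293 adjacent pairs within 10 kb the Spearman correlation was 0.17, with a median absolute difference of 31.0 score units, and across the 443 pairs further apart it was 0.09, with a median difference of 28.4. On the other 4 large arms the correlations were 0.08 and 0.11. These describe peaks of the same libraries, and weak correlations are no finding. Scores also recurred exactly: the 737 peaks took 620 distinct values, 80 values were shared by at least 2 peaks, and 1 value was shared by at most 5.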
